A study of Drosophila melanogaster with 9 samples.

Results

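The genes described here control how a male germ cell of Drosophila melanogaster enters and leaves the meiotic divisions. Of 10 such genes, 7 (twe, CycB, CycB3, fzy, bol, Rbp4 and fest) have a probe set under their symbol in the annotation of the array, out of 11982 genes with such a probe set. Older and newer symbols were also searched. The phosphatase gene stg, the kinase gene Cdk1 and the cyclin gene CycA are not listed there under any of these names and were not analysed here. The 7 genes have 11 probe sets of the 18769 that are not array controls, and each gene is represented by the probe set with the highest mean over all 9 arrays.

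The study cut testes of wild-type flies into an apical, a middle (labelled proximal) and a distal region, taken as mitosis, meiosis and post-meiosis, and measured the RNA of 3 biological replicates of each on 9 Affymetrix Drosophila Genome 2.0 arrays. All samples came from the same Wolbachia-free strain, named TEMPE T in the labels, and from virgin males kept for 6 to 10 days at room temperature, with 250 to 500 testes pooled per replicate. A phase is a dissected region that is enriched for germ cells of that phase and also holds other germ cells and somatic cells. Values are hybridization intensities on a log2 scale after the RMA procedure of the authors, so that a difference of 1 is a 2-fold difference in intensity, and they carry no call of whether a transcript was detected.

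Entry into the meiotic divisions depends on the kinase Cdk1 bound to a cyclin. Phosphates that hold the kinase inactive are removed by a Cdc25 phosphatase, and in the male germline of the fly the meiotic form of this phosphatase is encoded by twe, whereas stg encodes the form used in mitotic divisions. Spermatocytes transcribe most of what they need early and divide only after a long growth phase, so the timing rests on control of translation. The RNA-binding protein Boule, encoded by bol, is needed for translation of the twe transcript, and Rbp4 with its partner Fest holds back translation of CycB until spermatocytes are mature. Exit from a division requires the anaphase-promoting complex, a ubiquitin ligase that marks cyclins and securin for destruction and is activated by the Cdc20 protein that fzy encodes.

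The transcripts of twe, CycB, CycB3 and fzy had similar or slightly different intensity in the mitotic and the meiotic samples and were lower in post-meiosis. Those of bol and fest changed by only -0.43 and -0.13 (log2) after meiosis. From meiosis to post-meiosis the intensity fell 29.1-fold for fzy, 26.5-fold for Rbp4, 18.8-fold for CycB3, 4.51-fold for CycB and 3.13-fold for twe, but only 1.35-fold for bol. For fzy this fall was seen with its brightest probe set alone, while a dimmer probe set of bol fell 2.52-fold. The gene fest did not pass the test in any of the 3 comparisons between phases. These folds are ratios of array intensities, and where a transcript nears the background of the array they can understate the change.

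**Figure D1:**
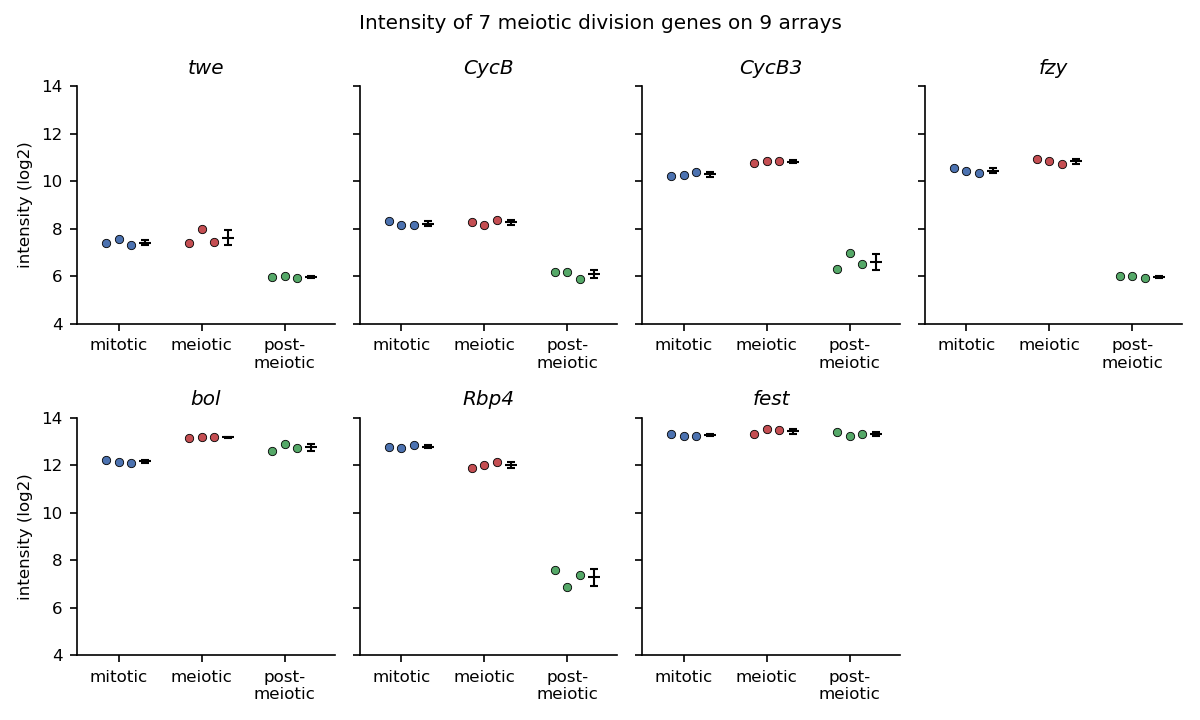
Hybridization intensity (log2, vertical axis) of the brightest probe set of each of 7 genes on 9 arrays, by phase; circles are single arrays, and the bar beside them is the mean with its SD (n = 3). For twe, CycB, CycB3, fzy and Rbp4 all post-meiotic arrays lie below all arrays of the other phases, while the arrays of fest lie between 13.2 and 13.5 in every phase.

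The sole Cdc25 gene that could be measured, twe, differed little between the mitotic and the meiotic samples and dropped in post-meiosis. Its intensity (log2) was 7.38, 7.54 and 7.30 on the mitotic arrays, 7.41, 7.98 and 7.44 on the meiotic arrays and 5.95, 6.01 and 5.92 on the post-meiotic arrays. A single meiotic array, replicate 2, was higher than the others, and the mitotic and meiotic arrays overlapped. The difference between meiosis and mitosis was 0.20 (95% interval -0.09 to 0.49, limma adjusted p = 0.238), and without meiotic replicate 2 it was 0.02. From meiosis to post-meiosis twe fell by 1.65 (SE 0.13, adjusted p = 1.6e-07), with no overlap of the arrays. The levels in mitosis and meiosis thus have no order beyond their spread, and post-meiosis was the lowest.

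The B-type cyclin gene CycB showed no detectable difference between mitosis and meiosis and was lower in post-meiosis. Its intensity was 8.32, 8.16 and 8.13 on the mitotic, 8.27, 8.16 and 8.34 on the meiotic and 6.17, 6.19 and 5.88 on the post-meiotic arrays. The mitotic and meiotic arrays overlapped, and all post-meiotic arrays were lower. The difference between meiosis and mitosis was 0.05 (95% interval -0.17 to 0.27, adjusted p = 0.706), but 0.25 with cyclic loess normalization between arrays (adjusted p = 0.0493). From meiosis to post-meiosis CycB fell by 2.17 (SE 0.10, adjusted p = 5.5e-10).

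The transcript of CycB3, a cyclin that acts in metaphase and anaphase, had its highest intensity in meiosis. It was 10.22, 10.24 and 10.40 on the mitotic, 10.77, 10.86 and 10.83 on the meiotic and 6.28, 6.96 and 6.51 on the post-meiotic arrays. No phase overlapped another, and the post-meiotic arrays were more scattered (SD 0.35) than those of mitosis (0.10) and meiosis (0.05). CycB3 rose by 0.53 (SE 0.14, adjusted p = 0.0052) from mitosis to meiosis and then fell by 4.24 (adjusted p = 2.6e-11).

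By its brightest probe set, the Cdc20 gene fzy was slightly higher in meiosis than in mitosis and then fell steeply, as Rbp4 and CycB3 did. Its dimmer probe sets changed by -0.09 and 0.07 after meiosis, from meiotic means of 6.94 and 4.95 that left less room for a fall. With the brightest probe set of fzy the values were as follows. The arrays read 10.54, 10.43 and 10.34 on the mitotic, 10.93, 10.84 and 10.71 on the meiotic and 5.99, 5.98 and 5.92 on the post-meiotic arrays. The phases did not overlap. The rise of fzy was 0.39 (SE 0.09, adjusted p = 0.0017), 0.63 with cyclic loess, and its fall was 4.86 (SE 0.09, adjusted p = 2.6e-13), and only 31 of 18769 probe sets fell further in that step. On the post-meiotic arrays the intensities of twe, CycB and fzy lay between the lower quartile (5.26 to 5.38) and the median (6.48 to 6.54) of all probe sets. How far below these readings the transcripts lie cannot be read without a detection call. In RNA from whole regions, fewer cells of a type and less RNA per cell cannot be told apart.

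Among the regulators of translation, bol and Rbp4 moved in opposite directions from mitosis to meiosis. The intensity of bol was 12.23, 12.14 and 12.08 on the mitotic, 13.14, 13.18 and 13.18 on the meiotic and 12.60, 12.90 and 12.72 on the post-meiotic arrays. Every meiotic array was above every post-meiotic one, and these in turn were above all mitotic arrays. The bol transcript rose by 1.02 (SE 0.09, adjusted p = 4.8e-07), an approximately 2.02-fold increase, and then fell by 0.43 (adjusted p = 9.6e-04). With cyclic loess the rise was 0.48 (adjusted p = 3.4e-04). Post-meiosis remained 0.59 above mitosis (adjusted p = 5.0e-05), although with cyclic loess this difference was 0.08 (adjusted p = 0.409).

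For Rbp4, mitosis was the phase of highest intensity. The values were 12.77, 12.71 and 12.84 on the mitotic, 11.89, 12.00 and 12.11 on the meiotic and 7.56, 6.87 and 7.38 on the post-meiotic arrays. The phases were fully separated, in descending order. Rbp4 fell by 0.77 (SE 0.14, adjusted p = 4.4e-04) in the step to meiosis and by 4.73 (adjusted p = 1.5e-11) in the step to post-meiosis. Over both steps its intensity fell 45.3-fold, and only 23 of 18769 probe sets fell further.

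In contrast with Rbp4, the transcript of its partner fest did not differ detectably between phases. Its intensity was 13.30, 13.24 and 13.23 on the mitotic, 13.31, 13.50 and 13.45 on the meiotic and 13.39, 13.21 and 13.29 on the post-meiotic arrays. The meiotic arrays lay just above the mitotic ones without overlap and overlapped those of post-meiosis. The difference was 0.17 (95% interval -0.01 to 0.35, adjusted p = 0.117) from mitosis to meiosis and -0.13 (95% interval -0.31 to 0.05, adjusted p = 0.193) from meiosis to post-meiosis. The first of these depends on the processing, since it passed at 0.17 with an intensity trend in the spread estimate (adjusted p = 0.0393) and at 0.23 (adjusted p = 0.0414) with arrays centred on their median and had the other sign with cyclic loess (-0.54, adjusted p = 2.6e-04). The second passed at -0.27 (adjusted p = 0.018) with centred arrays. Post-meiosis differed from mitosis by 0.04 (95% interval -0.14 to 0.22), but by -0.75 with cyclic loess (adjusted p = 8.5e-06).

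Across the 7 genes, 3 rose (bol, CycB3 and fzy), 1 fell (Rbp4) and 3 did not pass from mitosis to meiosis, with a median change of 0.20. In that comparison 50.7% of all 18769 probe sets were called, 24.3% as rises and 26.3% as falls, so that 4 called of 7 is close to the background. From meiosis to post-meiosis 6 fell, none rose by limma (none at an unadjusted p under 0.05 either) and fest did not pass, with a median of -2.17, where 65.6% of all probe sets were called, 37.8% as rises and 27.8% as falls. Between mitosis and post-meiosis 5 fell, bol rose and fest did not pass (median -2.12), where 79.1% were called, 49.6% as rises and 29.5% as falls. The median change of all probe sets was 0.06, 0.13 and 0.21 in these comparisons, the last of which was 0.01 with cyclic loess, and -0.02 in place of 0.13 with centred arrays. Of all calls 48.0%, 57.7% and 62.7% were rises, against 56.7%, 43.0% and 57.4% with centred arrays and 47.4%, 50.8% and 50.3% with cyclic loess. The arrays of mitosis and meiosis did not overlap for 5 of the 7 genes (64.5% of all probe sets), those of meiosis and post-meiosis for 6 (69.4%), and those of mitosis and post-meiosis for 6 (80.7%). The comparisons share arrays, so their changes are not independent of each other.

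**Figure D2:**
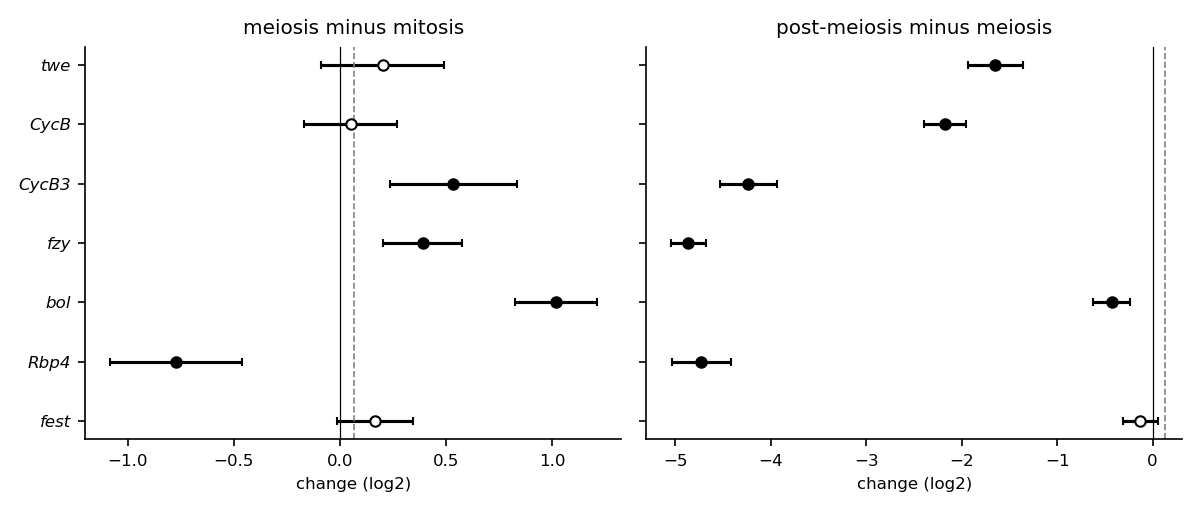
Change in intensity (log2, horizontal axis, a separate scale for each comparison) of 7 genes from mitosis to meiosis and from meiosis to post-meiosis, with 95% intervals of limma; filled circles have an adjusted p under 0.05, the solid line is 0 and the dashed line is the median of all probe sets. In the earlier comparison only Rbp4 lies below 0, and in the later one fest lies closest to 0 at -0.13.

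Changes were also compared within pairs of genes, as the difference of their log2 intensities on each array, which shows unequal change and no level. Of 6 pairs with related roles, 3 had both genes measured, and each was tested in 3 comparisons. From mitosis to meiosis the difference of bol and Rbp4 increased by 1.79, from -0.62 ± 0.12 to 1.17 ± 0.09 (SD, n = 3, two-sided exact permutation test, p = 0.1). Between meiosis and post-meiosis it increased by a further 4.30 (exact permutation p = 0.1). The difference of CycB and CycB3 went from -2.08 in mitosis to -2.56 in meiosis and to -0.50 in post-meiosis, a change of -0.48 and then of 2.06 (exact permutation p = 0.1 for both). The difference of fzy and CycB changed by 0.34 and then by -2.69 (exact permutation p = 0.1 for both). In all 9 tests the arrays of the phases were completely separated, and 0.1 is the smallest p that 3 arrays against 3 allow, also after adjustment over the 9 tests, so none can pass a threshold of 0.05.

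Markers of the cell types in the samples changed between the phases as well. The mean intensity of 6 spermatocyte genes was 10.19 to 10.32 on the mitotic arrays, 10.23 to 10.28 on the meiotic and 6.95 to 7.20 on the post-meiotic arrays. Only fzo of the 6 rose from mitosis to meiosis (2.17), whereas aly, can, kmg and nht fell and sa did not pass (0.11, adjusted p = 0.331). All 6 spermatogonial genes (bam, bgcn, nanos, vas, zpg and piwi) fell at both steps, and their mean was 8.89 to 9.17, 6.93 to 7.07 and 5.98 to 6.05 in the order of the phases. For 5 of 6 spermatid genes with a probe set the means were 9.76 to 9.93, 11.23 to 11.35 and 11.27 to 11.46. These genes moved in different directions after meiosis. The transcripts of schuy and t-cup rose (0.77 and 1.19), those of wa-cup and soti fell (-0.94 and -0.38), and sunz did not pass (-0.22). Of the 3 measured muscle genes of the testis sheath, Mlc2 and up rose after meiosis by 4.0 and 3.14, whereas the brightest probe set of sls fell by 0.35 (adjusted p = 0.0023), and the mean of the 3 of 6 that were measured was 8.87 to 9.14 against 6.67 to 6.75 in meiosis and 7.04 to 7.43 in mitosis. For the 5 of 6 hub and cyst cell genes with a probe set (upd1, hh, tj, eya and zfh1) the means were 6.35 to 6.42, 5.87 to 5.92 and 6.37 to 6.49. After meiosis hh rose by 2.85, zfh1 fell by 0.29 and the other 3 did not pass (median 0.09). The part of these cells in the changes of the 7 genes was not tested.

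Transcripts of other Cdk1 regulators shared the post-meiotic fall. Of 16 genes named, 11 were measured, and 9 fell, 1 rose and 1 did not pass from meiosis to post-meiosis, with a median of -2.88 against 0.13 for all probe sets, of which 27.8% fell and 37.8% rose. The largest falls were those of gwl (-4.61), the Greatwall kinase that protects Cdk1 substrates from dephosphorylation, and of the Cdk-binding subunits Cks85A (-4.08) and Cks30A (-3.61). In the step from mitosis to meiosis 6 fell, 2 rose and 3 did not pass (median -0.30), where 26.3% of all probe sets fell and 24.3% rose. Both gwl and Cks30A rose, by 0.93 and 0.66. The Cdk-activating kinase is made of Cdk7, CycH and Mat1, and these fell by 1.02, 1.17 and 1.29 (adjusted p = 1.3e-07 to 1.4e-06). The phosphatase subunit gene tws fell by 2.41 and then rose by 0.49 (adjusted p = 0.0237), a call that was lost with centred arrays (0.35, adjusted p = 0.125). The inhibitory kinases of Cdk1, Myt1 and Wee1, and the kinase gene polo have no listed probe set and were not analysed here.

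Subunits and activators of the anaphase-promoting complex changed in both directions after meiosis. Of the activators, fzr and fzr2, both relatives of fzy, were not among those that fell, whereas cort was. Of 15 genes named, 14 were measured, and 8 fell, 2 rose and 4 did not pass from meiosis to post-meiosis (median -0.48), while 0 rose with centred arrays and 5 with cyclic loess. Of all probe sets 27.8% fell and 37.8% rose in that step with the values as deposited. With centred arrays 4565 of 18769 probe sets rose, and with cyclic loess 5281. The testis-expressed paralog fzr2 had its lowest intensity in mitosis, with a mean of 9.32 ± 0.05 (SD, n = 3), and rose by 1.41 (SE 0.08, adjusted p = 1.8e-08) from mitosis to meiosis. From meiosis to post-meiosis it rose by a further 0.26 (adjusted p = 0.0151), a call lost with centred arrays (0.11, adjusted p = 0.274). The activator fzr, which acts late in mitosis and in G1, changed by -0.15 (adjusted p = 0.156) and then rose by 0.27 (adjusted p = 0.0126), also lost with centred arrays (0.12, adjusted p = 0.262). The female meiotic activator cort changed by 0.17 (adjusted p = 0.269) and then fell by 0.63. Falls among the others were largest for Rca1 (-3.45), an inhibitor of the complex, and for the subunits Cdc16 (-2.41) and APC4 (-1.75). From mitosis to meiosis 3 genes rose, 4 fell and 7 did not pass, close to the 50.7% of all probe sets that were called, with a median of -0.08 that was 0.07 with cyclic loess, and falls were largest for Cdc16 (-0.85) and APC10 (-0.55). The ubiquitin-conjugating enzyme gene vih, named after its values were seen, rose by 0.50 (0.16 with cyclic loess, adjusted p = 0.0894) and then changed by 0.0004 (95% interval -0.17 to 0.17).

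Nearly all genes of the spindle checkpoint and the separase system fell after meiosis. Of 14 measured genes of 15, 13 were lower in post-meiosis than in meiosis by the test and the remaining 1 did not pass (median -2.20), and 12 fell with cyclic loess, where 27.8% of all probe sets fell with the values as deposited. The change was -4.74 for borr, a subunit of the chromosomal passenger complex, -3.95 for the checkpoint gene mad2 and -3.52 for pim. The securin that pim encodes is a target of the anaphase-promoting complex, and its transcript had risen by 0.61 (SE 0.14, adjusted p = 0.0028) from mitosis to meiosis, like those of CycB3 and fzy. In that step 8 of the 14 fell, 2 rose and 4 did not pass (median -0.28), but 4 fell, 4 rose and 6 did not pass with cyclic loess. Of all probe sets 26.3% fell and 24.3% rose in that step with the values as deposited. With cyclic loess 4743 of 18769 probe sets fell and 4267 rose. Falls from mitosis to meiosis were largest for Zw10 (-1.60), for the separase gene Sse (-1.52), which then changed by -0.11 (adjusted p = 0.559), and for Mad1 (-1.40).

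**Figure D3:**
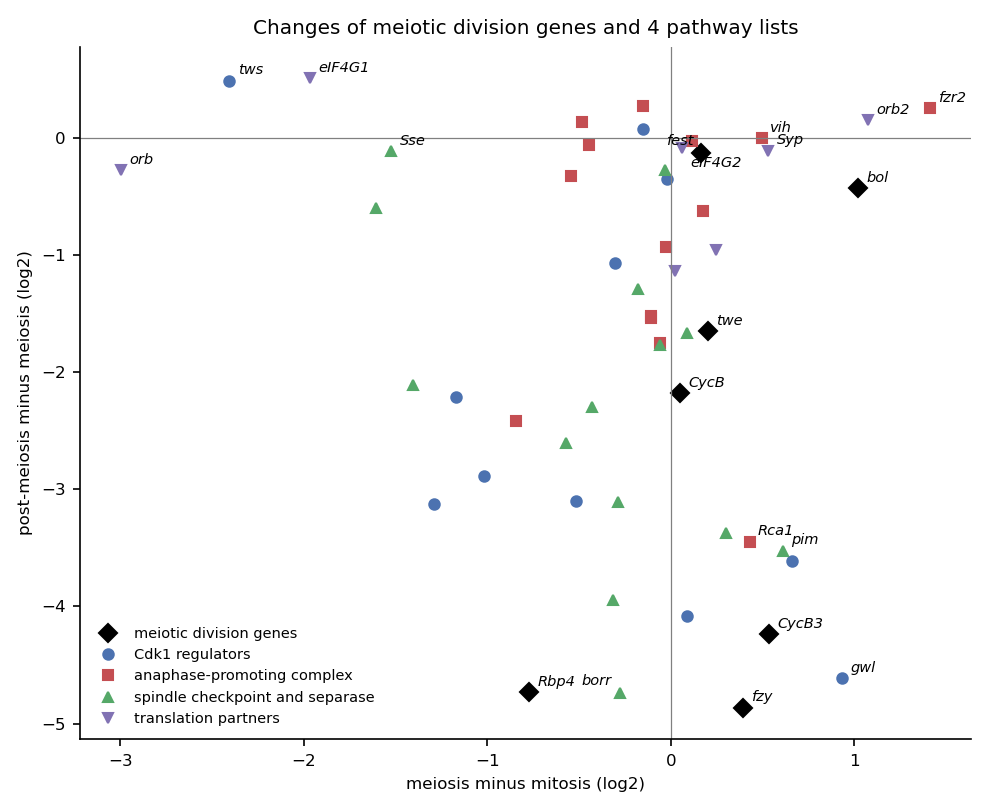
Change from mitosis to meiosis (log2, horizontal axis) against change from meiosis to post-meiosis (log2, vertical axis) of the 7 division genes (black diamonds) and of 46 genes in 4 lists, each point a gene and its brightest probe set. Points with a fall of more than 4 in the later step include fzy, Rbp4, CycB3, gwl and borr, whereas bol and fest lie among Syp, orb2, eIF4G2, vih and fzr2 near 0 on the vertical axis; the axes share the meiotic arrays.

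Genes of translation in the male germline changed in both directions. Of 8 named, 7 were measured, and 1 rose, 3 fell and 3 did not pass from meiosis to post-meiosis (median -0.11), while 5 fell with centred arrays and 4 with cyclic loess, where 2 rose. The 4 called of 7 are near the 65.6% of all probe sets. The RNA-binding protein gene Syp rose by 0.53 from mitosis to meiosis and then changed by -0.11 (adjusted p = 0.233), but cyclic loess turned its earlier change to -0.23 (adjusted p = 0.0192). The testis form of the translation initiation scaffold, eIF4G2, is required for the meiotic divisions, and it changed by 0.06 (adjusted p = 0.539) and -0.09 (adjusted p = 0.321). Its general counterpart eIF4G1 fell by 1.97 and then rose by 0.51. Of the cytoplasmic polyadenylation factors, orb fell by 3.0 and then by 0.27, whereas orb2 rose by 1.07 and then changed by 0.16 (adjusted p = 0.104). The means of orb in meiosis and post-meiosis, 4.29 and 4.02, lay below the lower quartile of all probe sets, so its later change is one between dim readings. The initiation factors eIF4E1 and eIF4E3 fell by 1.13 and 0.96 in the later step. From mitosis to meiosis 3 rose, 2 fell and 2 did not pass (50.7% of all probe sets called), but 1 rose and 6 fell with cyclic loess. Between mitosis and post-meiosis, 10 of the 11 Cdk1 regulators, 10 of the 14 genes of the anaphase-promoting complex (7 with cyclic loess), all 14 checkpoint and separase genes (13 with cyclic loess) and 4 of the 7 translation genes (6 with cyclic loess) fell, against 29.5% of all probe sets. In the anaphase-promoting complex 2 rose (4 with cyclic loess), as did 2 of the translation genes (1 with cyclic loess), against 49.6% of all probe sets. These shares are those of the deposited values. With cyclic loess 5802 of 18769 probe sets fell and 5873 rose in this comparison.

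For some genes the result depends on the probe set. The array holds 3 probe sets for bol, of mean log2 intensity 12.69, 5.89 and 5.0, and 3 for fzy, of 9.08, 6.82 and 4.92. The middle probe set of bol changed by 0.29 (adjusted p = 0.152) from mitosis to meiosis and fell by 1.33 (adjusted p = 6.4e-06) in the later step, a larger fall than that of the brightest. From mitosis to post-meiosis it fell by 1.05 (limma adjusted p = 4.9e-05), whereas the brightest rose by 0.59. The dimmest one of bol rose by 0.20 (adjusted p = 0.0491) and then changed by -0.01 (adjusted p = 0.876). For fzy the middle probe set rose by 0.28 (adjusted p = 0.0137) and then changed by -0.09 (adjusted p = 0.363), while the dimmest changed by 0.17 (adjusted p = 0.186) and 0.07 (adjusted p = 0.554). The fall of fzy by 4.86 was therefore seen with the brightest of its probe sets alone, and the transcript parts that these probe sets match are not given in the annotation used here. The dimmest one of fzy (means 4.78, 4.95 and 5.02 in the order of the phases) lay below the lower quartile of all probe sets in every phase. The middle one read 6.94 in meiosis, against 10.83 for the brightest. Both left less room for a fall, so they cannot decide whether the transcript fell as far. Names ending in _s_at or _a_at, as for the brightest probe sets of bol and CycB, mark probe sets that can match more than a single transcript.

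**Figure D4:**
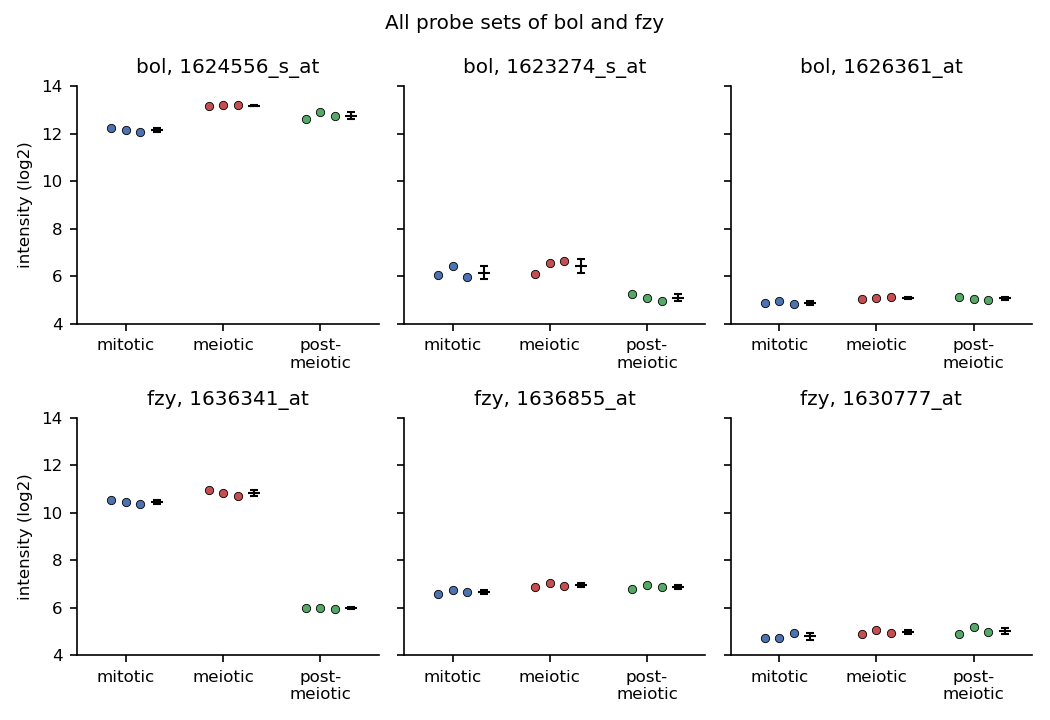
Intensity (log2, vertical axis) of all 3 probe sets of bol (upper row) and of fzy (lower row), from the brightest to the dimmest, on 9 arrays by phase; circles are single arrays and the bar is the mean with its SD (n = 3). The brightest probe set of fzy drops to between 5.92 and 5.99 in post-meiosis, while its other probe sets stay within 0.4 of their mitotic means.

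Genes with a profile most like that of a division gene were found by the root mean square difference over the 9 arrays between log2 profiles, each centred on its own mean, among 11981 other genes. Closest to twe were Orc4 (0.15), CG9471 (0.15) and the checkpoint kinase gene Mps1 (0.16). Closest to bol were sls (0.053), CG14763 (0.069) and IFT57 (0.072). Closest to fzy were vis (0.081), CG8478 (0.14) and lds (0.18). Mps1 changed by 0.09 (adjusted p = 0.45) and then fell by 1.66, against 0.20 and -1.65 for twe, and vis changed by 0.31 and -4.95, against 0.39 and -4.86 for fzy. The brightest probe set of the muscle gene sls changed by 0.95 and -0.35, against 1.02 and -0.43 for bol, unlike the rises of Mlc2 and up after meiosis. The middle probe set of sls changed by 1.05 and -0.41, while its dimmest rose by 0.83 in the later step. Among the 7 genes themselves, the smallest differences were those of twe and CycB (0.36), bol and fest (0.37) and CycB3 and fzy (0.39), and the largest was that of bol and Rbp4 (2.57). By the RefSeq annotation of Release 6, twe and fzy lie on the same arm, 2L, with 13 protein-coding genes between them, and their profiles differed by 1.48.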

How the data were processed

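The deposited values are log2 hybridization intensities per probe set that the authors obtained with RMA background correction and quantile normalization in R, versions not given in the sources used here, without pooling replicates. Of 18952 probe sets, 183 controls were left out, and 13647 of the rest have 1 symbol, 402 several and 4720 none. Differences between phases were tested two-sided with lmFit and eBayes of limma 3.58.1 in R 4.3.3, with all 9 arrays in 1 fit, a Benjamini-Hochberg adjustment across the 18769 probe sets and a threshold of 0.05. The fit was tested on simulated arrays with independent noise and far fewer changed probe sets than were called here. That test cannot measure the error rate in these data. Pairs were tested with scipy 1.17.1. The number of arrays limits the precision. The limma p-values rest on the spread between replicate dissections in all 3 phases, drawn toward that of the other probe sets, and not on the compared phases alone. Members and lists were chosen with earlier results of these data known. Named genes are all members, the 3 largest called changes of each list and comparison, a few preset regulators, the nearest profiles and the markers; lmg, lut and other list genes without a probe set of their own were not analysed. Alternatives were centred arrays, cyclic loess, a filter at a mean of 6, an intensity trend, a replicate block, other probe sets and leaving out each array. Planned promoter motifs were not analysed here.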

Additional observations from a re-analysis of the deposited data

How the results depend on the processing

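With cyclic loess, 2 in place of 1 of the 7 genes fell from mitosis to meiosis and 0 in place of 1 rose from mitosis to post-meiosis by limma, where 2 rose with the dimmest probe set of each gene. The change of fest turned to -0.54 from mitosis to meiosis and to -0.75 from mitosis to post-meiosis with cyclic loess, to -0.043 in the latter with centred arrays and to -0.0084 without post-meiotic replicate 1, the lowest of values up to 0.0836 with a post-meiotic array left out. With its dimmest probe set, the change of fzy turned to 0.068 from meiosis to post-meiosis and to 0.23 from mitosis to post-meiosis. In the fits that left out 1 array, 188 of 189 changes of the 7 genes kept their direction and their side of the threshold. In part of these fits the array left out belonged to neither phase compared. There the change could not move and only its spread estimate could.

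The deviations of same-numbered arrays correlated between -0.09 and 0.36, and not every array correlated best with its own number. Between mitosis and meiosis, the arrays of replicate 1 correlated at 0.36 with each other. With arrays of other numbers they correlated between -0.22 and -0.18, while those other arrays correlated between 0.06 and 0.15 across these phases. The deviations are taken from the mean of each phase, so those of its arrays cancel out. A positive correlation of 1 pair of arrays therefore brings negative ones with other arrays, and these values are not separate observations. Whether equal replicate numbers mark paired samples was not tested, because correlations among so few arrays per phase cannot decide it. With a replicate block, 9570 in place of 9509 probe sets were called from mitosis to meiosis, 4 of the 7 genes among them, and the block changed no call of the 7 genes. Intensities near the array background limit what the post-meiotic values can show.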
